A study of Mus musculus with 6 samples.

Results

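The 10 genes described here encode the hyaluronan synthase Has2, the hyaluronan receptor Cd44, the hyaluronan-binding proteoglycan versican (Vcan), the syndecans Sdc1, Sdc2, Sdc3 and Sdc4 and the glypicans Gpc1, Gpc4 and Gpc6. They were found by gene symbol among the 54532 genes of the deposited table, and all 10 passed the limit for testing. RNA sequencing was performed on MC3T3-E1 cells, a mouse pre-osteoblast line, after 3 days of osteogenic induction, in medium with β-glycerophosphate, ascorbic acid and dexamethasone. The control group (3 samples) received osteogenic medium alone, and the metformin group (3 samples) received the same medium with 0.2 mM metformin, a biguanide that lowers blood glucose. Both groups thus carried the osteogenic supplements, cells outside osteogenic medium were not analysed here, and 1 cell line is the whole model. The question was which transcripts of the cell coat and pericellular matrix differed when metformin was added.

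Hyaluronan is a long, unsulfated sugar chain that is made at the plasma membrane by hyaluronan synthases and pushed directly into the pericellular space. CD44 binds it at the cell surface, and versican binds it through one end of its core protein while carrying chondroitin sulfate chains along its middle. Syndecans span the membrane and glypicans are tethered to it by a lipid anchor. Both carry heparan sulfate chains that hold growth factors such as fibroblast growth factors, Wnts and bone morphogenetic proteins near their receptors, which is why they are studied in bone-forming cells.

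Levels are given in FPKM, the reads of a gene per kilobase of its length and scaled to the depth of the library, so that genes of different length can be compared. Testing used limma-trend on log2(FPKM + 1) for the 12681 genes whose mean FPKM reached 0.5, and a gene was called higher or lower at an adjusted p-value (Benjamini-Hochberg) under 0.05. Because 1 is added before taking logs, differences of low genes come out smaller on this scale than in FPKM. Between 18399861 and 20652437 reads were recovered per control sample and between 19256672 and 22111790 per metformin sample. The 10 genes had at least 200 reads (Gpc6) and up to 40070 reads (Gpc1) in a sample. Control replicate 1 stood apart from the other controls. Its correlations with them across tested genes were 0.960 and 0.952, where the other pair had 0.988 and every pair of metformin samples 0.992. Results that rest on this sample are therefore given with and without it.

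The 10 genes showed the same split among the controls. Control replicate 1 was above the mean of the other controls for Vcan (by 0.71 on the log2 scale), Has2 (0.60), Gpc6 (0.50), Cd44 (0.42), Gpc4 (0.36) and Sdc2 (0.35), and it was below that mean for Gpc1 (-0.66), Sdc3 (-0.51), Sdc1 (-0.34) and Sdc4 (-0.19). The deviation followed the GC content of the longest transcript, which ran from 40.6% for Has2 to 59.1% for Gpc1, with a Pearson correlation of -0.91 over the 10 genes. These genes share 1 library, so the correlation is a description only. Over all tested genes the Spearman correlation was -0.67. Values with a correction for GC content, added after the data were seen, stand beside the member whose call it changed.

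**Figure D1:**
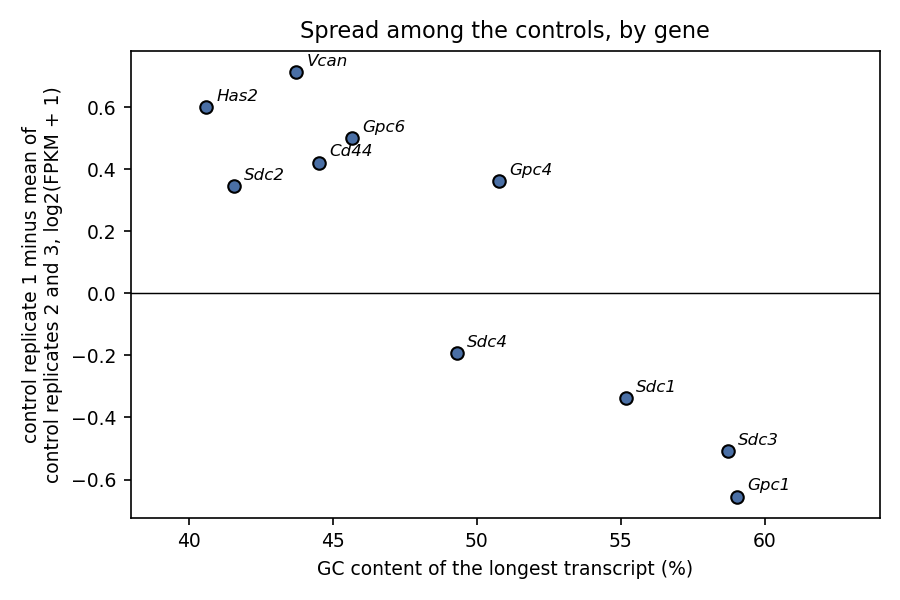
Deviation of control replicate 1 from the mean of control replicates 2 and 3, on the log2(FPKM + 1) scale (y axis), against the GC content of the longest transcript in percent (x axis), 1 point for each of the 10 genes. The 6 genes above 0 reach 50.8% GC at most (Gpc4), and the 4 genes below 0 start at 49.3% (Sdc4).

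With metformin, 6 of the 10 genes were higher, 1 was lower and 3 were not called. Over all tested genes 13.2% were called higher and 9.28% lower. Sdc3 rose 5.28-fold, Gpc6 rose 5.27-fold, Vcan rose 2.33-fold, and Cd44, Sdc4 and Gpc4 rose by 0.54 to 0.60 in log2 units, while Sdc1 fell to 0.730 of its control level. Has2, Sdc2 and Gpc1 were not called. The 3 metformin samples lay entirely above the 3 controls for 7 genes (the 6 called higher and Gpc1) and entirely below them for Sdc1, against 23.6% and 20.5% of all tested genes (44.1% did not overlap in one direction or the other). The median log2 fold change of the 10 genes was 0.55, beside 0.0053 for all tested genes. The 10 genes were chosen with earlier results of these data known, so these comparisons are descriptions only. Without control replicate 1, 7 members were higher and 1 was lower, beside 2969 and 2590 of the 12681 tested genes. Without metformin replicate 1, 2 or 3, 3, 3 and 4 members were higher and 0 lower. The calls over all tested genes were then 938, 943 and 985 higher and 495, 518 and 533 lower. Without control replicate 2, 4 members were higher and 0 lower, beside 1255 and 741 of all tested genes. Without control replicate 3 these were 6 and 0, beside 1569 and 1054. In bulk RNA, fewer cells of a kind and less RNA per cell cannot be told apart.

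**Figure D2:**
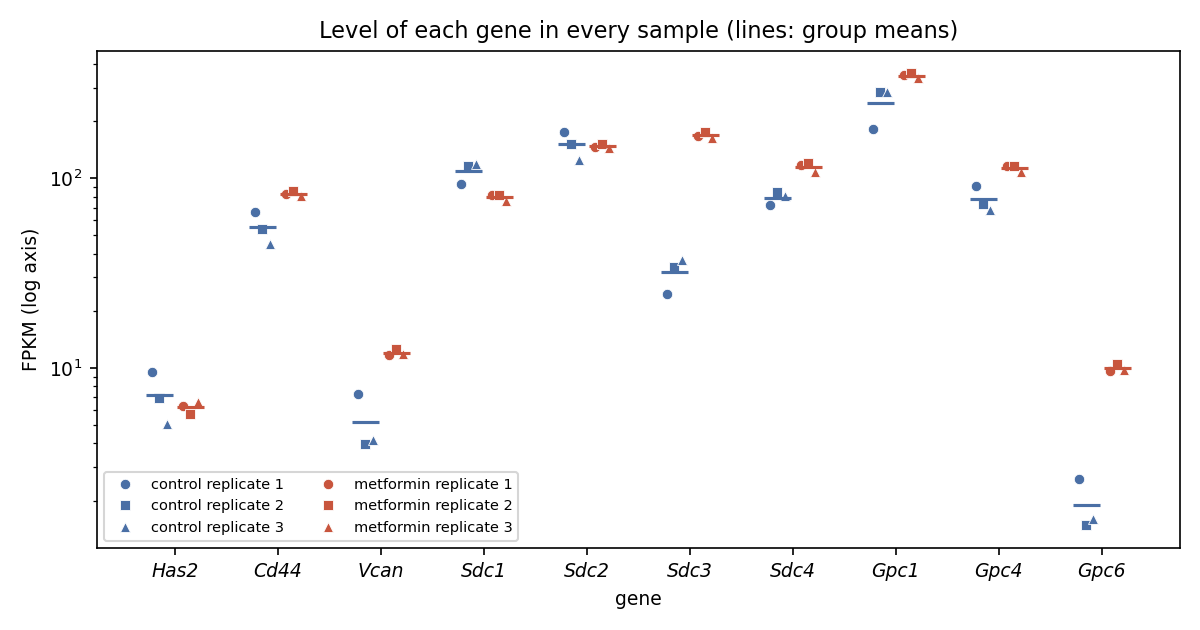
Level of each of the 10 genes in every sample, in FPKM on a log axis, with blue symbols for the controls, red symbols for metformin, a symbol shape for each replicate number and lines at the group means. Sdc3 moves from 24.7 to 37.2 FPKM in the controls to 163 to 176 FPKM with metformin, and the groups overlap for Has2 and Sdc2.

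In the controls the order of mean levels was Gpc1 (249.9 FPKM), Sdc2 (150.4), Sdc1 (109), Sdc4 (78.9), Gpc4 (77.5), Cd44 (55.1), Sdc3 (31.9), Has2 (7.18), Vcan (5.16) and Gpc6 (1.89). Sdc4 and Gpc4 overlapped in their sample ranges, as did Has2 and Vcan, and the other neighbours were apart in all 3 samples. Metformin samples placed Sdc3 second, behind Gpc1 and ahead of Sdc2, and moved Sdc1 behind Cd44. In that group Sdc4 and Gpc4 overlapped, as did Cd44 and Sdc1. Has2 was last, at 6.20 FPKM, below Gpc6.

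**Figure D3:**
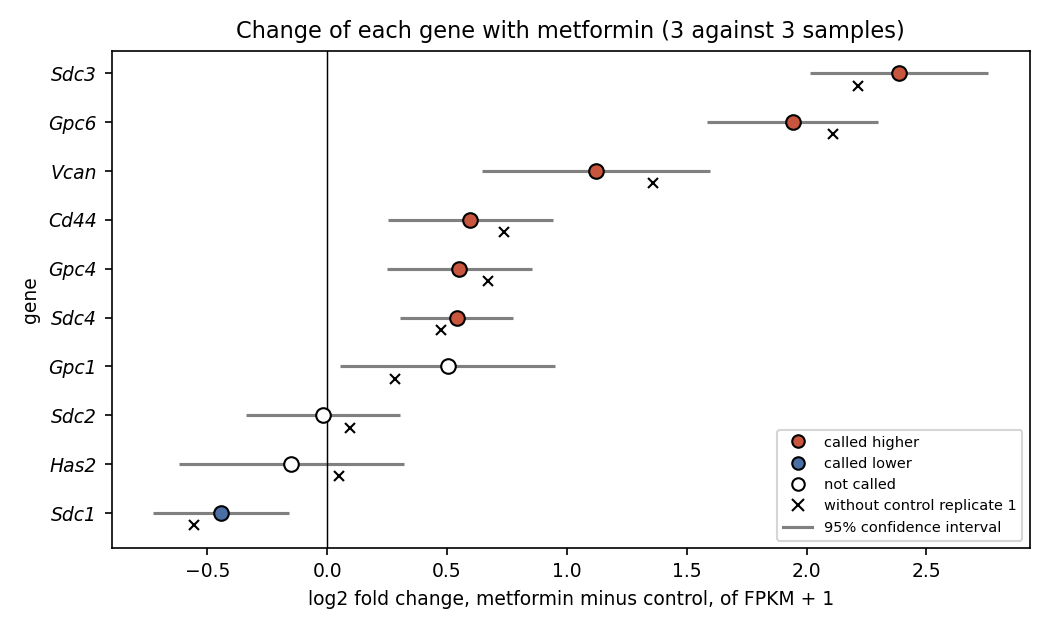
Log2 fold change of FPKM + 1, metformin minus control, for each of the 10 genes (circles, 3 against 3 samples) with its 95% confidence interval (grey lines), and the same value without control replicate 1 (crosses). Red, blue and white circles are genes called higher, called lower and not called. Sdc3 (2.38) and Gpc6 (1.94) lie farthest to the right, and Has2 and Sdc2 change sign without control replicate 1.

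Syndecans have a variable outer part and a short, conserved cytoplasmic tail that ends in a motif bound by PDZ proteins such as syntenin. The last 60 coding bases of the 4 genes, stop codon included, are shown because they hold this end motif. Most positions in the stretch differ among the genes. They were read from GENCODE M21 transcripts (GRCm38) at chr12:8791748-8791807 (plus strand), chr15:33032481-33032540 (plus strand), chr4:130822750-130822809 (plus strand) and chr2:164426086-164426145 (minus strand), in each case within exon 5. Capitals mark the 14 positions that are identical in all 4 genes when the ends are aligned without gaps.
Sdc1: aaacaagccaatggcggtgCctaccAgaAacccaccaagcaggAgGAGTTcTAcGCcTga
Sdc2: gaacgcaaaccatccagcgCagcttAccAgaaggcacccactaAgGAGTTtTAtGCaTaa
Sdc3: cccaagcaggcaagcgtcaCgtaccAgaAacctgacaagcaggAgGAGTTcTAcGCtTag
Sdc4: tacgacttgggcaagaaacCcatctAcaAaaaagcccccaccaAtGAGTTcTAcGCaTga
In this stretch Sdc1 and Sdc3 were the closest pair, with 38 identical bases (63.3%), followed by Sdc2 and Sdc4 with 31 (51.7%), and the other pairs had 36.7% to 43.3%. The RNA levels of Sdc1 and Sdc3, the closest pair in these bases, moved in opposite directions with metformin. A relation between these bases and RNA levels was not tested.

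Sdc3, also called N-syndecan and best known from the nervous system and from muscle and cartilage development, had, with Gpc6, one of the largest changes of the 10 genes. It lies on chromosome 4 (130792537 to 130826319). Its level was 24.7, 33.9 and 37.2 FPKM in the controls and 167, 176 and 163 FPKM with metformin. Every metformin sample was over 4 times the highest control. The mean rose from 31.9 ± 6.51 FPKM (SD, n = 3) to 169 ± 6.41 FPKM (SD, n = 3), or 2.38 in log2 units (limma-trend, standard error 0.16, adjusted p = 0.000181). Without control replicate 1 the fold of the means was 4.74 in place of 5.28. The antisense genes Gm12970 and Gm26716 overlap Sdc3 and had at most 1 read in a sample.

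Sdc1, the syndecan of epithelia and plasma cells, was the only one of the 10 genes called lower. It lies on chromosome 12 (8771323 to 8793715). It had 92.8, 116 and 119 FPKM in the controls and 81.6, 81.5 and 76.1 FPKM with metformin. The highest metformin sample was below the lowest control, which was replicate 1. The mean went from 109 ± 14.3 to 79.7 ± 3.11 FPKM (SD, n = 3 each), or -0.44 in log2 units (limma-trend, standard error 0.12, adjusted p = 0.0390). The call survived 1 of the 6 omissions of a single sample, that of control replicate 1 (log2 fold change -0.55, adjusted p = 0.000665), and the adjusted p-values of the others were 0.111 without control replicate 2, 0.0840 without control replicate 3 and 0.125, 0.125 and 0.149 without metformin replicates 1, 2 and 3. The call was also lost with no filter on low values (adjusted p = 0.0714) and under the replicate block (adjusted p = 0.0961).

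Sdc4, the syndecan of focal adhesions, lies on chromosome 2 (164424247 to 164443887). Control levels were 72.0, 84.7 and 80.1 FPKM, and metformin levels were 117, 119.7 and 108 FPKM. The groups did not overlap, and the spread within each was small beside the gap. The mean rose from 78.9 ± 6.44 to 115 ± 5.99 FPKM (SD, n = 3 each), or 0.54 in log2 units (limma-trend, standard error 0.10, adjusted p = 0.00972). The call was lost without metformin replicate 1 (adjusted p = 0.0604) and without metformin replicate 2 (adjusted p = 0.0607).

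Sdc2, the syndecan of mesenchymal cells and fibroblasts, lies on chromosome 15 (32920723 to 33034935). It had 175, 152 and 124 FPKM in the controls and 146, 151 and 145 FPKM with metformin. All 3 metformin samples fell inside the range of the controls. The log2 fold change was -0.02, with a 95% confidence interval from -0.34 to 0.30 (adjusted p = 0.943 by limma-trend). Changes within that interval are compatible with these samples, so a lack of change was not shown. Without control replicate 1 the value was 0.098 (adjusted p = 0.419).

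The makeup of the syndecan family was followed as shares. Of the summed FPKM of the 4 genes, Sdc3 held 6.77%, 8.76% and 10.3% in the controls and 32.6%, 33.3% and 33.2% with metformin, a difference of 24.4 percentage points. Sdc1 went from 29.5% ± 3.77 to 15.6% ± 0.282 (SD, n = 3 each) and Sdc2 from 40.6% ± 6.84 to 28.8% ± 0.459. The mean level of Sdc2 was 150.4 FPKM in the controls and 147.2 FPKM with metformin, so its share fell as the sum of the 4 genes rose. The share of Sdc4 was 21.3% ± 1.34 in the controls and 22.5% ± 0.474 with metformin. The shares of Sdc1, Sdc2 and Sdc3 did not overlap between the groups, and each had p = 0.1 by a two-sided exact permutation test, the smallest p that 3 against 3 samples allow. For Sdc4 the exact permutation p was 0.2. The sum itself was 371 ± 14.0 FPKM in the controls and 511 ± 17.7 FPKM with metformin (exact permutation p = 0.1).

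The ratio of Sdc3 to Sdc1, like the shares, does not depend on library scaling. It was 0.266, 0.291 and 0.313 in the controls and 2.04, 2.16 and 2.14 with metformin. Sdc1 was the more abundant of the pair in every control, and Sdc3 was the more abundant in every metformin sample. The ratio of Sdc3 to Sdc2 likewise passed from 0.221 ± 0.0790 to 1.15 ± 0.0183 (SD, n = 3 each).

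**Figure D4:**
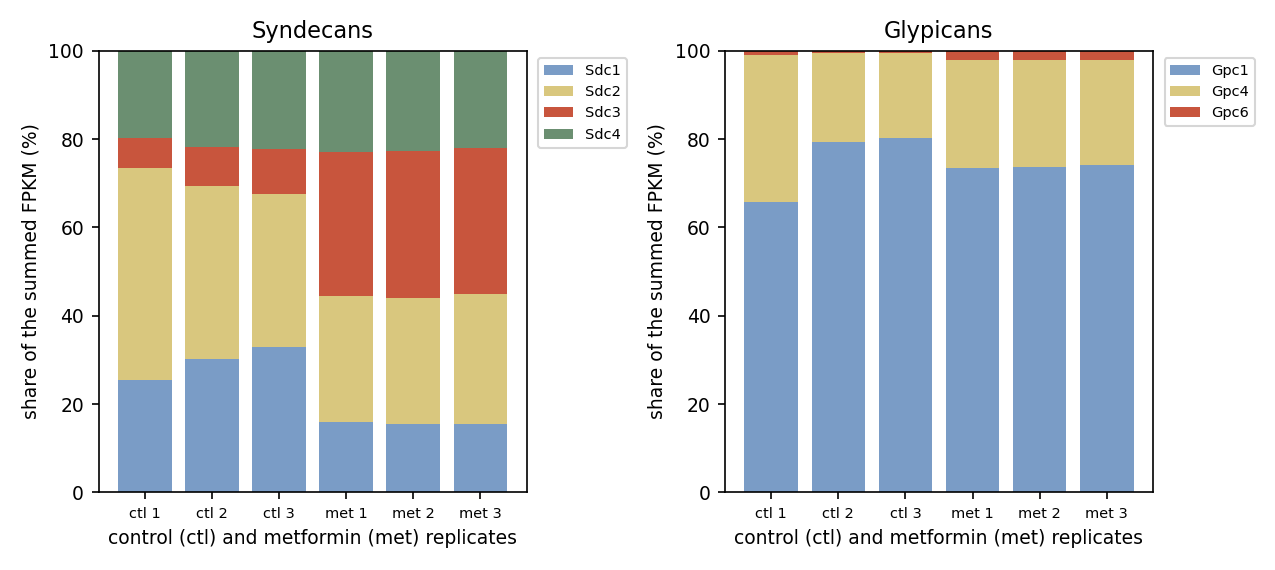
Share of each syndecan in the summed FPKM of Sdc1 to Sdc4 (left) and of each glypican in the summed FPKM of Gpc1, Gpc4 and Gpc6 (right), in percent, 1 bar for each sample. The Sdc3 part of the bar widens from at most 10.3% in the controls to at least 32.6% with metformin, and Gpc1 holds most of the glypican sum in all 6 samples.

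Upstream sequence is shown for Sdc3 and Vcan, which rose, and for Sdc1, which fell, since these members moved apart. It was taken from RefSeq (GRCm38.p6), in which 6 of the 10 genes were matched (Cd44, Sdc4, Sdc3, Sdc1, Vcan and Gpc4), and Has2, Sdc2, Gpc1 and Gpc6 were not. Only bases upstream of the gene model are printed, at chr4:130792287-130792536 (plus strand), chr12:8771146-8771322 (plus strand) and chr13:89742513-89742762 (minus strand), 5′ to 3′. Capitals mark GC boxes (GGGCGG) and, in Sdc3, 1 half-site of the cAMP response element (TGACGT), each searched on both strands.
Sdc3: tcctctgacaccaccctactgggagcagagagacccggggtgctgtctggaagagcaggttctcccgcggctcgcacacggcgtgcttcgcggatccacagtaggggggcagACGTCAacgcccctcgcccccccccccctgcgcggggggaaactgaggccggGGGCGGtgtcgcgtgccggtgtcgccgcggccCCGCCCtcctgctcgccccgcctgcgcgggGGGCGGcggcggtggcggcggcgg
Sdc1: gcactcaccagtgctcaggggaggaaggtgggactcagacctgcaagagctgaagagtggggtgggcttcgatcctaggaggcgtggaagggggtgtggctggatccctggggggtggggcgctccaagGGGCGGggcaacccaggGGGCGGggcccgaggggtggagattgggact
Vcan: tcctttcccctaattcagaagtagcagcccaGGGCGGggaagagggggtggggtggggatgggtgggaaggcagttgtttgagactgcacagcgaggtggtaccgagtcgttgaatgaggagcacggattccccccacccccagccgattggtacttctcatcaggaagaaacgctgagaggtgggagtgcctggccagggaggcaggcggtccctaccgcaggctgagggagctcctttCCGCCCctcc
In the 250 bases before the start site, GC boxes numbered 3 for Sdc3, 3 for Sdc1 (2 of them in the printed bases), 2 for Vcan, 4 for Sdc4, 1 for Gpc4 and 0 for Cd44, and 32.7% of all 32851 upstream windows held at least 1. The windows of Sdc4 and Gpc4 lay wholly inside their gene models, with 0 bases upstream of them. The half-site was found for Sdc3 only among the 6 genes, where 6.47% of all windows held it. The full cAMP response element (TGACGTCA, which contains the half-site), the AP-1 site (TGANTCA), the E-box (CACGTG) and the TATA box (TATAAA) had 0 matches in the 6 windows and were present in 1.55%, 6.75%, 6.02% and 12.4% of all windows. Sdc1, which fell, and Sdc3, which rose, thus held the same number of GC boxes. A match is a run of letters and no measure of binding.

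Glypicans are globular proteins held at the outer face of the membrane, and they carry heparan sulfate close to it. Gpc6 on chromosome 14 (116925315 to 117976544), a glypican whose loss shortens limbs in humans, was the least abundant of the 10 genes in the controls. It had 2.59, 1.48 and 1.59 FPKM there and 9.70, 10.4 and 9.71 FPKM with metformin. Every metformin sample was over 3 times the highest control, replicate 1. The mean rose from 1.89 ± 0.611 to 9.95 ± 0.432 FPKM (SD, n = 3 each), or 1.94 in log2 units (limma-trend, standard error 0.15, adjusted p = 0.000301). With a pseudocount of 0.1 in place of 1 the log2 fold change was 2.38, and without control replicate 1 the fold of the means was 6.47 in place of 5.27. Sdc3 stayed ahead of Gpc6 with a pseudocount of 0.1 (2.42 in log2 units). Without control replicate 1, Gpc6 was ahead by the fold of the means (4.74 for Sdc3). By log2 fold change with a pseudocount of 1 it was not (2.11, and 2.22 for Sdc3). With voom on recovered reads, Gpc6 was slightly ahead (2.42, and 2.39 for Sdc3).

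Gpc4, on the X chromosome (52053021 to 52165252), is expressed in progenitor cells and adipose tissue and takes part in Wnt and fibroblast growth factor signalling. Its controls had 91.1, 73.3 and 68.2 FPKM, and its metformin samples had 117, 116 and 107 FPKM. The groups did not overlap, although control replicate 1 lay nearer to the metformin samples than the others did. The mean rose from 77.5 ± 12.1 to 113 ± 5.25 FPKM (SD, n = 3 each), or 0.55 in log2 units (limma-trend, standard error 0.13, adjusted p = 0.0229). The call was lost without control replicate 2 (adjusted p = 0.0743) and without metformin replicates 1, 2 and 3 (adjusted p = 0.0998, 0.0994 and 0.0711).

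Gpc1, the most abundant of the 10 genes in both groups, lies on chromosome 1 (92831645 to 92860779). It had 180.4, 286 and 284 FPKM in the controls and 349.7, 356 and 335 FPKM with metformin. The groups did not overlap, and control replicate 1 was far below its group. The log2 fold change was 0.50 (standard error 0.19, 95% confidence interval 0.05 to 0.95), and the gene was not called (adjusted p = 0.105 by limma-trend). It was called without control replicate 1, with a smaller log2 fold change of 0.28 (adjusted p = 0.0120), and with the correction for GC content, with 0.42 (adjusted p = 0.0119). Its transcript shares 977 identical bases with Ankmy1 on the other strand, which had 8 to 15 reads in a sample.

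The glypican sum, with Gpc2 and Gpc3 listed at 0 in all samples and Gpc5 at no more than 1 read, was 329 ± 47.9 FPKM in the controls and 470.4 ± 16.2 FPKM with metformin (SD, n = 3 each, exact permutation p = 0.1). Gpc1 held 75.1% ± 8.07 of it in the controls and 73.8% ± 0.322 with metformin, and Gpc4 held 24.3% ± 7.77 and 24.1% ± 0.378. With all samples, both shares overlapped between the groups (exact permutation p = 1.0 for each), through control replicate 1. Without that sample, Gpc1 differed by -5.97 percentage points and Gpc4 by 4.29, with no overlap (exact permutation p = 0.2 for each, the smallest that 2 against 3 samples allow). Gpc6 remained a small part, but its share did not overlap, at 0.945%, 0.412% and 0.450% in the controls and 2.04%, 2.16% and 2.15% with metformin (exact permutation p = 0.1).

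On the hyaluronan side the synthase did not pass the test, while the receptor and the binding proteoglycan did. Has2, on chromosome 15 (56665627 to 56694539), encodes the main hyaluronan synthase of mesenchymal cells. It had 9.53, 6.98 and 5.04 FPKM in the controls and 6.32, 5.72 and 6.58 FPKM with metformin. The metformin samples lay inside the control range. The log2 fold change was -0.15, with a 95% confidence interval from -0.62 to 0.32 (adjusted p = 0.634 by limma-trend), and it was 0.052 without control replicate 1 (adjusted p = 0.767). The antisense gene Has2os overlaps Has2 and had 8 to 25 reads in a sample.

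Cd44, on chromosome 2 (102811141 to 102901665), encodes the main hyaluronan receptor, which is anchored to actin by ezrin, radixin and moesin. Control samples had 66.4, 53.9 and 45.2 FPKM, and metformin samples had 82.5, 85.4 and 81.0 FPKM. All metformin samples were above the highest control, replicate 1. The mean rose from 55.1 ± 10.7 to 83.0 ± 2.23 FPKM (SD, n = 3 each), or 0.60 in log2 units (limma-trend, standard error 0.14, adjusted p = 0.0274). The call was lost without control replicate 2 (adjusted p = 0.0817), without metformin replicates 1, 2 and 3 (adjusted p = 0.0995, 0.109 and 0.0908) and with no filter on low values (adjusted p = 0.0589).

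Vcan, on chromosome 13 (89655312 to 89742509), is the chondroitin sulfate proteoglycan of loose and provisional matrix. It had 7.33, 3.99 and 4.17 FPKM in the controls and 11.7, 12.6 and 11.9 FPKM with metformin. The lowest metformin sample was well above control replicate 1, the highest control. The mean rose from 5.16 ± 1.88 to 12.0 ± 0.498 FPKM (SD, n = 3 each), or 1.12 in log2 units (limma-trend, standard error 0.20, adjusted p = 0.00873), and without control replicate 1 the fold of the means was 2.95 in place of 2.33. The ratio of Vcan to Has2 was 0.723 ± 0.133 in the controls and 1.95 ± 0.220 with metformin, that of Cd44 to Has2 was 7.88 ± 1.00 and 13.4 ± 1.35 (SD, n = 3 each), and neither ratio overlapped between the groups (exact permutation p = 0.1 for each). Vcan overlaps the antisense gene Gm4117, which had 83 to 150 reads in a sample, fewer than the 1185 or more of Vcan.

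Genes that act around these 10 were taken from 12 lists. Of 132 genes, 85 were tested, 22 were higher (25.9%, beside 13.2% of all tested genes), 7 were lower (8.24%, beside 9.28%) and 56 were not called. Their median log2 fold change was 0.076. The lists, too, were chosen with earlier results of these data known, so these shares are descriptions only. Without control replicate 1, 33 were higher and 17 lower, beside 2969 and 2590 of the 12681 tested genes. Without control replicate 2 these were 17 and 3, beside 1255 and 741, and without control replicate 3 they were 20 and 6, beside 1569 and 1054. Without any 1 metformin replicate 12 were higher and 1 or 2 lower, beside 938 to 985 and 495 to 533 of the tested genes. Of the 29 called genes, 13 kept their call through all 6 single-sample omissions. The call of each of the other 16 was lost in at least 1 omission, always including that of a metformin replicate and for some also without control replicate 2 or 3, while none was lost without control replicate 1.

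Heparan sulfate is built on a linker of sugars, elongated by Ext1 and Ext2 and then sulfated. Of 14 tested genes of chain polymerization and modification, 4 were higher and 1 was lower, with a median log2 fold change of 0.071. The largest change was that of Hs6st2, a 6-O-sulfotransferase, which rose from 2.41 ± 0.494 to 12.4 ± 0.891 FPKM (SD, n = 3 each), or 1.99 in log2 units (limma-trend, standard error 0.12, adjusted p = 0.000163). Papss2, which makes the sulfate donor, rose from 2.03 ± 0.459 to 4.89 ± 0.377 FPKM (log2 fold change 0.97, adjusted p = 0.00285), and its relative Papss1 rose by 0.44 in log2 units (adjusted p = 0.0104). Hs6st1, the other detected 6-O-sulfotransferase, rose by 0.72 in log2 units (adjusted p = 0.0328). The polymerase gene Ext1 was the 1 lower gene, and it is named because it stood alone (log2 fold change -0.31, adjusted p = 0.0287). The calls of Papss1, Hs6st1 and Ext1 held in 3, 2 and 1 of the 6 single-sample omissions.

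Sulf2, an extracellular enzyme that removes 6-O-sulfates from finished heparan sulfate, was the only called gene of 7 tested for trimming and breakdown. It had 55.7, 59.7 and 59.0 FPKM in the controls and 109, 114 and 103 FPKM with metformin, or 0.89 in log2 units (limma-trend, standard error 0.09, adjusted p = 0.000692). Both detected 6-O-sulfotransferases and the enzyme that takes this sulfate off were thus higher in the same samples. The calls of Hs6st2 and Sulf2 held in all 6 single-sample omissions, and that of Hs6st1 in 2. Of the 6 tested enzymes of the linker, Pxylp1, which removes a phosphate from its xylose, was higher (0.48, adjusted p = 0.0114), and its call held in 3 of the 6 single-sample omissions.

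Chondroitin and dermatan sulfate chains are those of versican and, in part, of syndecans. Of 15 tested genes for these chains, 4 were higher and 3 were lower. The higher genes were the lysosomal sulfatases Arsb (log2 fold change 0.81, adjusted p = 0.00306 by limma-trend) and Galns (0.61, adjusted p = 0.00578) and the sulfotransferases Chst7 (0.65, adjusted p = 0.0251) and Chst14 (0.47, adjusted p = 0.0266). The lower genes were the sulfotransferases Chst15 (-0.56, adjusted p = 0.0170), Chst3 (-0.49, adjusted p = 0.0200) and Chst11 (-0.44, adjusted p = 0.0330). Chst14, Chst3 and Chst11 were named after their values were seen. The calls of Arsb and Galns held in all 6 single-sample omissions, and those of Chst3 in 4, of Chst14 and Chst15 in 3, and of Chst7 and Chst11 in 2.

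Versican is cut by proteases of the ADAMTS family. Of 4 tested, 3 were higher and Adamts4 was not called (log2 fold change -0.06, adjusted p = 0.683 by limma-trend). Adamts9 rose from 2.01 ± 0.321 to 6.50 ± 0.366 FPKM (SD, n = 3 each), or 1.32 in log2 units (adjusted p = 0.000341), and Adamts5 rose from 1.42 ± 0.0546 to 3.36 ± 0.121 FPKM, or 0.85 in log2 units (adjusted p = 0.000648). Adamts1, by far the most abundant of these proteases, rose from 218 ± 8.29 to 279 ± 7.24 FPKM (0.35, adjusted p = 0.0274), a call that held in 2 of the 6 single-sample omissions. Vcan and 3 genes for its proteases were thus higher in the same samples.

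Of the genes that make hyaluronan or supply its sugars, 2 of 7 tested were higher, Ugdh (log2 fold change 0.61, adjusted p = 0.00628 by limma-trend), which makes UDP-glucuronic acid, and Uap1 (0.50, adjusted p = 0.00534), which makes UDP-N-acetylglucosamine. The other synthases were under the FPKM limit, with 1 to 9 reads for Has1 and 30 to 70 reads for Has3 in a sample. Of 7 tested genes of hyaluronan breakdown, Tmem2, a cell surface protein that degrades hyaluronan (also named Cemip2), was higher, from 21.4 ± 2.94 to 47.4 ± 2.75 FPKM (SD, n = 3 each, log2 fold change 1.11, adjusted p = 0.000951). Of 8 tested receptors and binding proteins, Hmmr was higher, from 2.19 ± 1.22 to 14.0 ± 1.09 FPKM (log2 fold change 2.29, standard error 0.24, adjusted p = 0.00107). Without control replicate 1 its fold of the means was 9.37 in place of 6.36. Hmmr binds hyaluronan and is also a protein of the mitotic spindle, and the table cannot tell these roles apart. The other hyalectans (Acan, Bcan and Ncan) had at most 8 reads in a sample and were not tested.

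Of 6 tested genes listed for the shedding of syndecans or the release of glypicans, none was called higher and 2 were called lower. Notum acts on Wnt proteins and was listed here for a proposed release of glypicans. Its level fell from 1.16 ± 0.165 to 0.361 ± 0.0679 FPKM (SD, n = 3 each), or -0.66 in log2 units (limma-trend, adjusted p = 0.00616). It had 15 to 68 reads in a sample and passed the limit of 0.5 FPKM only through the controls. Tmem8 (also named Pgap6), an enzyme that acts on lipid anchors, had a log2 fold change of -0.48 (adjusted p = 0.0153), and its call held in 2 of the 6 single-sample omissions. At an unadjusted p-value under 0.05, 2 of the 6 had a higher level (Adam10 and Adam17), and voom on recovered reads called 1 higher.

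Among cytoplasmic and membrane partners of syndecans and CD44, 5 of 11 tested genes were higher and 1 was lower. Prkca, the kinase that the Sdc4 tail binds, rose from 5.30 ± 0.712 to 8.74 ± 0.347 FPKM (SD, n = 3 each, log2 fold change 0.63, adjusted p = 0.00627 by limma-trend). Nf2, which binds the CD44 tail, rose by 0.56 in log2 units (adjusted p = 0.0228), and Cd74, a membrane protein that forms a complex with CD44, had 0.353 ± 0.145 FPKM in the controls and 0.883 ± 0.0332 FPKM with metformin (SD, n = 3 each, log2 fold change 0.48, adjusted p = 0.0264). Cd74 had 6 to 26 reads in a sample and passed the limit of 0.5 FPKM only through the metformin samples, so its call is no independent support. Sdcbp2, a relative of syntenin, was lower (-0.58, adjusted p = 0.0230). The α-actinins Actn1 (0.40, adjusted p = 0.0170) and Actn4 (0.39, adjusted p = 0.0334) were the other higher genes and were named after their values were seen. The call of Prkca held in all 6 single-sample omissions, and those of the other 5 genes in 1 (Cd74) or 2.

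Over the 6 samples several members had a like pattern on the log2(FPKM + 1) scale. Pearson correlations were 0.99 between Cd44 and Gpc4, 0.97 between Vcan and Gpc6, 0.98 between Sdc3 and Sdc4 and 0.91 between Has2 and Sdc2. Vcan also had 0.985 with Gpc4 and 0.97 with Cd44, and Gpc6 had 0.96 with Gpc4 and 0.95 with Sdc3, so these pairs are not separate groups. Sdc1 had -0.98 with Vcan. These correlations hold the group difference and the deviation of control replicate 1 together and are given without a test. The tested genes most like each member were Hmgb3 for Sdc3 (0.999), Hgh1 for Sdc1 (0.999), Bckdk for Sdc4 (0.999), Hspe1 for Sdc2 (0.998), Cdc23 for Gpc6 (1.00), Rab32 for Gpc4 (0.997), Bex3 for Gpc1 (1.00), Gm12397 for Has2 (0.998), Tnfrsf19 for Cd44 (0.999) and Mpdz for Vcan (0.999). Between 2 (Sdc2) and 266 (Gpc6) genes had a correlation above 0.99 with a member, so the nearest gene is 1 of many in most cases.

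The labelled cell type was checked against its markers. Of 11 osteoblast markers, 10 were tested, 2 were higher with metformin (Col1a1 and Col1a2) and 3 were lower (Ibsp, Spp1 and Dmp1), and their summed level was 10091 to 11852 FPKM in the controls and 6835 to 7233 FPKM with metformin. Alpl was low in both groups, with 2.44 to 3.84 FPKM. Macrophage, endothelial, adipocyte and myocyte markers were low beside the summed osteoblast markers. Their summed levels were at most 2.18 FPKM for 6 macrophage genes (Cd68, the 1 tested, was lower), 0.156 FPKM for 6 endothelial genes, 3.18 FPKM for 6 adipocyte genes (Fabp4, the 1 tested, was not called) and 2.43 FPKM for 6 myocyte genes (Des, the 1 tested, was not called). The 7 chondrocyte genes summed to 30.9 to 45.1 FPKM in the controls and 30.2 to 32.8 FPKM with metformin, mostly Sox9 and Col2a1, and 1 of 4 tested (Col10a1) was lower. Itgam, Tyrobp, Cldn5, Cidec, Myog and Myod1 were listed at 0 in all samples. The part of the osteoblast and chondrocyte markers in the changes of the 10 genes was not tested.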

How the data were processed

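RNA sequencing libraries of 6 MC3T3-E1 samples were analysed, 3 grown in osteogenic medium and 3 in the same medium with metformin. The dose and the time are those of the study's methods. The table deposited by the authors holds FPKM values, reads per kilobase of gene length scaled to library depth. The submitters' processing notes name Bowtie 0.12.2, mm8 and mm9 without a role. The gene counter, its strand setting and the annotation are not given in the sources used here. Of 54532 gene identifiers, 53585 had the coordinates of GENCODE M21 (GRCm38), the 10 members included, so coordinates are given in that build.

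Multiplying FPKM by gene length gave, in each library, whole multiples of a single step for 100% of the values above 0 (tolerance 0.001), and so whole reads. The 12681 genes whose mean FPKM reached 0.5 were tested with limma-trend (limma 3.58.1, R 4.3.3) on log2(FPKM + 1), metformin minus control, with Benjamini-Hochberg adjustment at 0.05. The test was first run on simulated data. Shares and ratios were compared by a two-sided exact permutation test (SciPy 1.17.1), for which 0.1 is the smallest p that 3 against 3 samples allow. The settings varied were the pseudocount (0.1), the filter (none, or at least 10 reads in every sample), library scaling by total reads, voom on the recovered reads, the replicate number as a block, each sample left out, and, chosen after the data were seen, a correction for GC content with or without the block. Transcripts were compared with BLAST+ 2.17.0, and matches of at least 95% over at least 200 bases were counted as near-identical.

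The 10 genes and all lists were chosen with earlier results of these data known. Named beside the 10 were the up to 4 called genes of each list with the largest change, genes overlapping a member, the tested gene most correlated with each member, and marker genes at 0. The 3 samples of a condition are described as biological replicates. The limma-trend p-values weigh the difference between the groups against the spread between these replicates.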

Additional observations from a re-analysis of the deposited data

How the results depend on the processing

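Sdc3, Gpc6 and Vcan were called higher in all 14 alternatives, Sdc4 in 12, Gpc4 in 10 and Cd44 in 9, Sdc1 was called lower in 7, and Gpc1 was called in 3. Leaving out 1 sample gave 3 to 7 members higher and 0 to 1 lower, 938 to 2969 tested genes higher and 495 to 2590 lower, and 12 to 33 genes of the surrounding lists higher and 1 to 17 lower. The high ends all came without control replicate 1, where Has2 (0.052, range over the 6 omissions -0.35 to 0.05) and Sdc2 (0.098, range -0.15 to 0.10) changed sign, both uncalled. With no filter 0 members and 4 genes of the lists were lower by limma-trend (Sdc1 adjusted p = 0.0714). With the replicate block 0 members, 2 genes of the lists (15 were higher) and 698 tested genes were lower by limma-trend (Sdc1 adjusted p = 0.0961). In both, 1 member (Sdc1) was lower at an unadjusted p-value under 0.05 (voom was not run under these settings; with the main filter and no block it called 1 lower). The labels do not say whether samples with the same replicate number belong together. Correlations of their deviations were -0.053, 0.00027 and -0.055 for numbers 1 to 3. The deviation of control replicate 1 enters these values, so they cannot decide whether the samples were paired. With the GC correction 2092 tested genes were higher and 2325 lower, beside 1670 and 1177 without it, and 11 genes of the lists were lower. The block and the GC correction together gave 1793 lower. For all of these the cause was not tested, except that fewer samples enter the fits that leave 1 out. Family shares differed, without 1 sample, by -15.9 to -12.2 percentage points for Sdc1, -14.8 to -8.05 for Sdc2, 23.5 to 25.3 for Sdc3, 0.466 to 1.70 for Sdc4, -5.97 to 1.26 for Gpc1, -2.69 to 4.29 for Gpc4 and 1.42 to 1.68 for Gpc6. The sign turned for Gpc1 without control replicate 2 (0.753) or 3 (1.26) and for Gpc4 without control replicate 1 (4.29). Has1, Has3, Gpc2, Gpc3 and Gpc5 were under the limit of 0.5 FPKM and were not tested.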
